A study of Mus musculus with 12 samples.

Results

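DNA replication and S-phase genes were followed by complex across mouse T-cell leukaemias and normal thymocytes that carried or lacked MBD2, a protein that binds methylated DNA. A list of 52 genes in 11 complexes or steps was taken, from origin licensing to chromatin assembly, and 51 of them were measured by a probe set assigned to 1 gene, among 18193 genes measured in all. Chaf1a was the listed gene with no such probe set. The 51 genes were represented by 108 of the 45101 probe sets on the array.

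There were 4 groups of 3 arrays. The first were Notch1-driven T-ALL (T-cell acute lymphoblastic leukaemia) cells with wild-type MBD2, and the second were the same kind of leukaemia with MBD2 deletion. Both were GFP+ bone marrow cells sorted from transplanted recipient mice once GFP+ cells passed 50% of white blood cells. The remaining groups were CD4+CD8+ (double positive) thymocytes sorted from steady-state mice with wild-type or deleted MBD2. These groups are called WT leukaemia, KO leukaemia, WT thymocytes and KO thymocytes. The labels give no age, strain, sex or number of animals, and do not say whether the MBD2 deletion is in the germ line or only in blood cells. They do not say that the arrays of a group came from separate animals, so every p-value here measures only the spread between these arrays.

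Replication starts in 2 steps that the cell keeps apart. Before S phase, the origin recognition complex (Orc genes) with Cdc6 and Cdt1 loads the ring-shaped MCM helicase onto DNA, and geminin (Gmnn) binds Cdt1 to stop a repeat. At S phase, Cdc45, the GINS complex and Mcm10 turn the loaded ring into a moving helicase, primase and polymerase alpha lay primers, and polymerases delta and epsilon copy the strands, held by the clamp PCNA that the RFC complex loads. RPA coats single strands, Fen1 and Lig1 join the lagging-strand fragments, and the nucleotide enzymes supply the building blocks. Many of these genes are transcribed under E2F factors: E2f1 and E2f2 are known as activators, E2f7 and E2f8 as repressors late in the cycle, and cyclin E (Ccne1, Ccne2) drives entry into S phase. In the thymus, cells divide rapidly around the time they become double positive and most double positive cells are then at rest.

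Each value is the intensity of a probe set, not on a log scale. Differences are on the log2(intensity + 16) scale, which understates changes of dim probe sets, and were tested with limma; a gene was called when its Benjamini-Hochberg adjusted p over the 15420 genes tested was under 0.05. Standard errors (SE) and adjusted p-values are limma's throughout. All 51 members passed the filter on low values. Intensities are not compared between genes, because each probe set has its own response. In a mixed population, fewer cells in S phase and less RNA of these genes per cell cannot be told apart.

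Mbd2 itself read 820.4 ± 119 in WT leukaemia against 54.4 ± 12.4 in KO leukaemia, and 1136 ± 206 in WT thymocytes against 72.1 ± 10.7 in KO thymocytes (mean ± SD, n = 3), in accord with the labels. The sorted thymocytes had the double positive genes Cd4, Cd8a and Rag1 (mean Rag1 11101 and 11113), which the leukaemias had at lower levels or near background (mean Rag1 39.4 and 18.5). Of the 8 measured double positive genes, 7 were called lower in WT leukaemia than in WT thymocytes. The exception, Ptcra, was called higher there, at 2.01 (limma adjusted p = 7.22e-05). All 8 were called lower in KO leukaemia than in KO thymocytes. The T-cell gene Cd3g was present in all groups, with means from 2468 to 4995, whereas Thy1, a surface marker of T cells, had means of 6100.3 in WT and 1186 in KO leukaemia. Xist, expressed from the inactive X chromosome of females, read 4193 in WT leukaemia and at most 39.7 as a group mean elsewhere, so sex and group cannot be told apart in comparisons with WT leukaemia. The spiked control transcript dap gave a signal on 5 arrays (WT leukaemia 1 and 2, KO leukaemia 1, WT thymocytes 1 and 2) and not on the other 7. The ratio of the 3′ to the 5′ Gapdh probe set, a measure of RNA integrity, was 0.964 to 1.14 on those 5 and 1.12 to 3.68 on the 7.

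The promoters are shown because words bound by E2F were common in them, both in members called lower in KO leukaemia and in members that were not. RefSeq promoters (GRCm38.p6, 250 bases before to 50 after the gene start) were on hand for 43 of the 52 listed genes. The 4 E2F words searched on both strands were TTTCCCGC, TTTCGCGC, TTTGGCGC and TTTGCCGC. At least 1 was found in 16 of the 43 members (37.2%) and in 704 of 27025 genes (2.61%). The shorter words of the cell-cycle CHR element, TTTGAA and TTCGAA, were in 20.9% of members and 21.7% of all genes, and CCAAT was in 60.5% and 41.1%. A word is a match of letters, not a bound site. The promoters of 6 members are printed 5′ to 3′ in the direction of the gene, with E2F words of either strand in capitals. The first 4 belong to genes called lower in KO leukaemia: E2f2 (chr4:136172024-136172323, plus strand), Cdc6 (chr11:98907901-98908200, plus strand), Pole2 (chr12:69228141-69228440, minus strand) and Orc1 (chr4:108579204-108579503, plus strand). The last 2, Mcm3 (chr1:20820263-20820562, minus strand) and Mcm6 (chr1:128359656-128359955, minus strand), hold 2 and 3 words. By the probe sets used, their genes had the smallest differences between the leukaemias among the members with a promoter.
E2f2: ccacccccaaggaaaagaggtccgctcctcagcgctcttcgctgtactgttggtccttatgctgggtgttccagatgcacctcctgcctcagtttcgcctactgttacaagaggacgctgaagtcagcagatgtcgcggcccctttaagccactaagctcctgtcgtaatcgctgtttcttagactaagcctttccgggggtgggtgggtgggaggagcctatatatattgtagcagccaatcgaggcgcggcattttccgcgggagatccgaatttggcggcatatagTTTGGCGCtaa
Cdc6: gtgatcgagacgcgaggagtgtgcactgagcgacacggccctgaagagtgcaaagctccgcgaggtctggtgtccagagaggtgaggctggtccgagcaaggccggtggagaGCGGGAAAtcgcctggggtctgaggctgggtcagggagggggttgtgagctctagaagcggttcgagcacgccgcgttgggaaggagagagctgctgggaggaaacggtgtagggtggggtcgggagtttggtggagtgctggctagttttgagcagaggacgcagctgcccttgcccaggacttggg
Pole2: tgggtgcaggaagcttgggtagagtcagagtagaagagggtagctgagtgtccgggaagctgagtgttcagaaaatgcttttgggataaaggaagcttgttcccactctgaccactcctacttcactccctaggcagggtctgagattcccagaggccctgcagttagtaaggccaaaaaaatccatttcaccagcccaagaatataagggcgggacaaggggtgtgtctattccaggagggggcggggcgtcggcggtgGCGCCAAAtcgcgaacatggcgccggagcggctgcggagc
Orc1: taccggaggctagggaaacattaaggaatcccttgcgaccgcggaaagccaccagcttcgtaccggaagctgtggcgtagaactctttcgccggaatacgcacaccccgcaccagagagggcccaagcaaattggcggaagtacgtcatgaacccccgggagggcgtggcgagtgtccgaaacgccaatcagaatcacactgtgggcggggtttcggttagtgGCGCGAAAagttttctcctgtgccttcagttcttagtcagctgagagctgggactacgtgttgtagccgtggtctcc
Mcm3: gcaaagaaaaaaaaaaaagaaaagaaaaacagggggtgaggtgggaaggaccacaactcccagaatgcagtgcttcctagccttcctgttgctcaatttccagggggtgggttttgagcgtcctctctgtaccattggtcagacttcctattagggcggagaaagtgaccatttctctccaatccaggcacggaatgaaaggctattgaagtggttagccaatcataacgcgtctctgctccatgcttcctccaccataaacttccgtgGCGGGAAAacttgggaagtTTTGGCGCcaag
Mcm6: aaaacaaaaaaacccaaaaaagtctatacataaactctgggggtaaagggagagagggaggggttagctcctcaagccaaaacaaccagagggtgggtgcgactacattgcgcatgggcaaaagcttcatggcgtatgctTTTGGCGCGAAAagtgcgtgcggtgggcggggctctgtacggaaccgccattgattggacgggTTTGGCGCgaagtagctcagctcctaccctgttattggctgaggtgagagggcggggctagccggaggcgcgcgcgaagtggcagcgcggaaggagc

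The word in E2f2 lies after the gene start, as does the one in Pole2 and both in Mcm3. Those in Cdc6, Orc1 and Mcm6 lie before it. E2f2 has a second annotated promoter, which holds no E2F word.

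Across the members, WT leukaemia had the highest level and the thymocytes the lowest, with KO leukaemia between. The group mean was highest in WT leukaemia for 46 of 51 genes, and 39 genes ran in the order WT leukaemia, KO leukaemia, then both thymocyte groups. All 3 WT leukaemia arrays lay above all other 9 arrays for 24 of the 51 genes. The share of all genes tested was not counted for any of these orders of groups or arrays, so whether members stood out in them was not tested. In the 12 genes outside the order above, the KO leukaemia mean was below both thymocyte means for Pold3, Pcna, Rpa1, Rpa3, Rrm2, E2f2, E2f7 and E2f8 and between them for Orc1, Tyms, Dut and Ccne2. The median over members on the log2 scale was 10.04, 10.11 and 9.90 on the WT leukaemia arrays and 9.44, 9.20 and 9.41 on the KO leukaemia arrays. It was 8.88, 8.88 and 8.59 in WT thymocytes and 8.82, 8.70 and 9.03 in KO thymocytes.

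**Figure D1:**
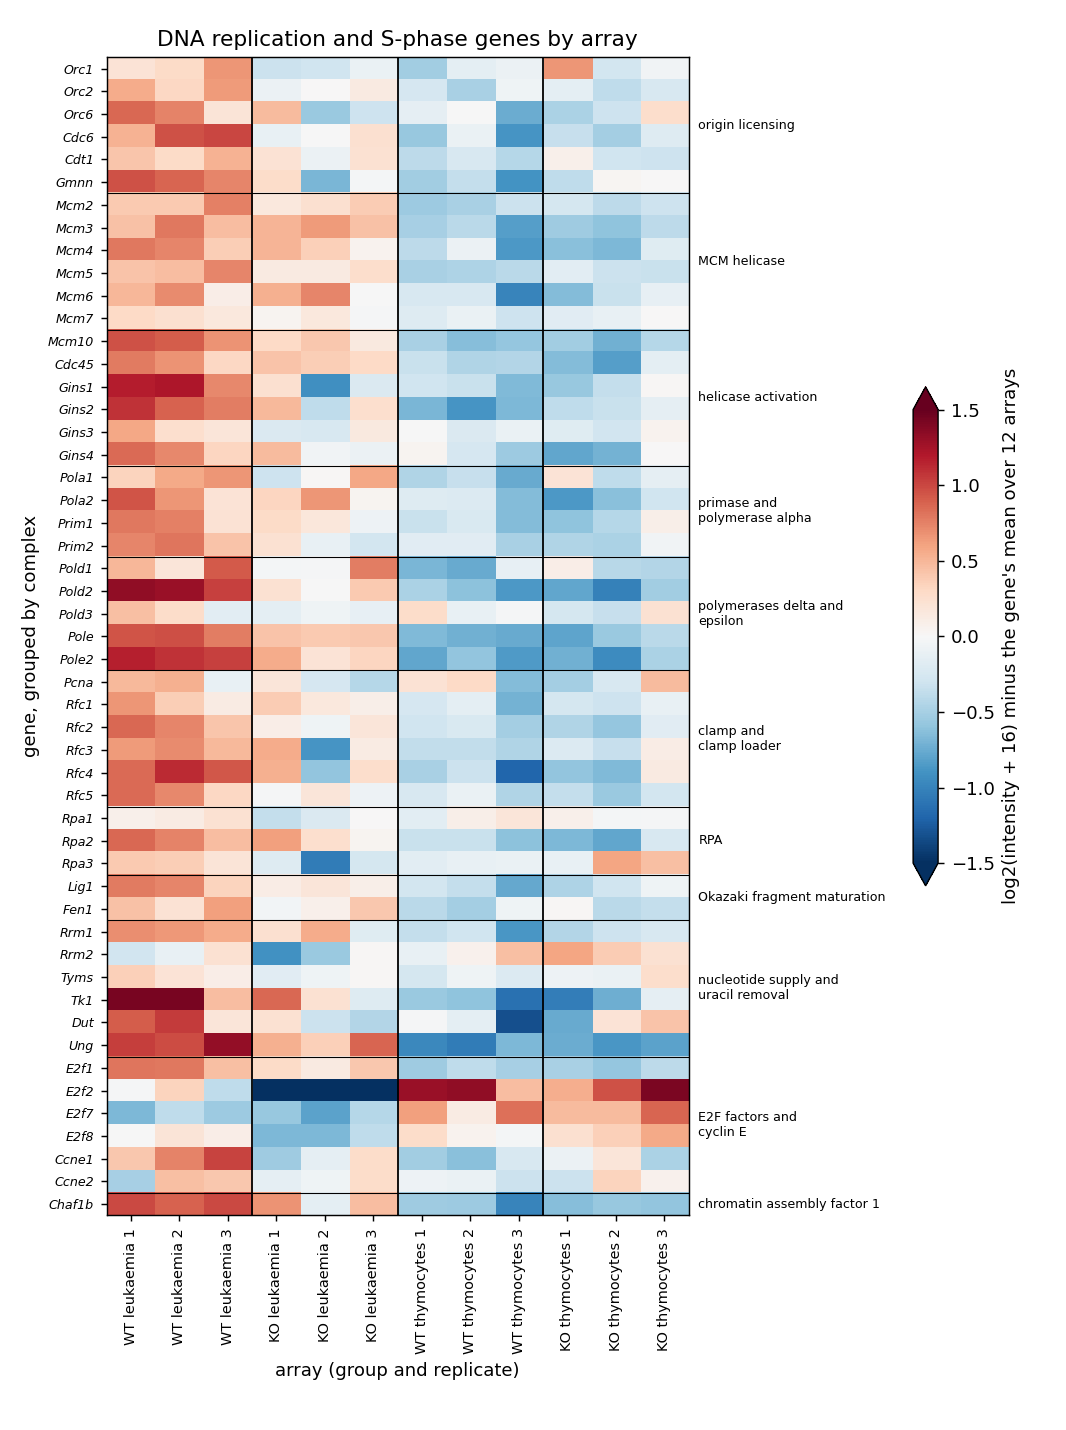
Colour shows log2(intensity + 16) of each of the 51 genes on each of the 12 arrays minus the gene's mean over the 12, with genes grouped by complex; values beyond 1.5 in either direction have the end colour. Red is above that mean and blue below it. The group mean is highest in WT leukaemia for 46 genes, while E2f2, E2f7 and E2f8 are higher in thymocytes than in KO leukaemia.

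The first comparison asked how the leukaemias with and without MBD2 differed. All 51 members had a lower mean in KO leukaemia, and 14 were called lower and 0 higher, where 6.98% and 9.19% of all genes tested were called lower and higher. The median difference was -0.48 over members and -0.06 over all genes tested. For 30 members all 3 KO arrays lay below all 3 WT arrays, against 18.4% of all genes tested. The called genes were spread over licensing (4 of 6), helicase activation (2 of 6), primase and polymerase alpha (1 of 4), polymerases delta and epsilon (3 of 5), the clamp loader (2 of 6 in the clamp group) and the E2F group (2 of 6). In the MCM ring, RPA, the fragment-joining enzymes, the nucleotide enzymes and chromatin assembly, limma called 0 of 18 members. Of the 18, 8 had an unadjusted p under 0.05: Mcm5, Rpa1, Rpa3, Lig1, Dut, Tyms, Ung and Chaf1b. So did 4466 of the 15420 genes tested. The split between complexes depended on the setting. With the mean of a gene's probe sets, Mcm2, Mcm5, Rpa1, Lig1, Fen1, Dut and Rrm2 were called lower too.

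Licensing genes included Gmnn, the Cdt1 inhibitor geminin, which read 2705, 2569.6 and 2326 on the WT leukaemia arrays and 1684, 857 and 1360.0 on the KO arrays. The groups did not overlap, KO array 2 was lowest, and Gmnn fell by 1.00 (SE 0.24, adjusted p = 0.0315). Cdc6, the ATPase that helps load the MCM ring, read 807, 1098 and 1139 against 517, 557 and 663. Every KO array was below every WT array, at -0.78 (SE 0.17, adjusted p = 0.0206). Orc1, the ATPase subunit of the origin recognition complex, read 157, 167 and 223 against 104, 107 and 125, without overlap, and fell by 0.62 (SE 0.15, adjusted p = 0.0331). Orc2, another subunit, fell by 0.48 (adjusted p = 0.0413). Cdt1, which brings the MCM ring to the origin, differed by -0.29 (adjusted p = 0.187), and Orc6 by -0.73 (adjusted p = 0.158), with overlapping groups for Orc6.

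With the probe sets used, the 6 subunits of the MCM helicase differed by -0.36 to -0.01, and 0 were called. Mcm6 read 3717, 4296 and 2803 in WT and 3815, 4363 and 2615 in KO leukaemia, with groups that overlap over their whole range. Its difference was -0.01 with a 95% interval from -0.57 to 0.54, which spans differences of that size in either direction. Mcm3 read 1970.0, 2536 and 2005 against 2070.3, 2268 and 1973, at -0.04 (interval -0.35 to 0.27). For Mcm2, Mcm5 and Mcm7 the KO arrays lay wholly below the WT arrays, with differences of -0.25, -0.36 and -0.18 and adjusted p of 0.281, 0.0849 and 0.307. Mcm4 differed by -0.33 (adjusted p = 0.264). Other probe sets with a group mean over 100 were mostly lower still in KO leukaemia. They were at -0.60 and -0.35 for Mcm5, -0.47 for Mcm2 and -0.37 for Mcm4. Those of Mcm3 were at -0.14, -0.26 and -0.28, and that of Mcm6 was at -0.15.

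Among the factors that activate the helicase, Gins1 and Mcm10 were called. Gins1, a subunit of the 4-part GINS complex, read 1358, 1391 and 992 on the WT arrays and 703, 307 and 507 on the KO arrays, again lowest on KO array 2. It was 2.52-fold lower, a difference of -1.33 (SE 0.30, adjusted p = 0.0245). Mcm10, which binds the activated helicase, read 922, 894 and 757 against 583, 627 and 519. The groups lay apart, at -0.56 (SE 0.12, adjusted p = 0.0238). The other GINS genes and Cdc45 did not pass: Gins2 was at -0.79 (adjusted p = 0.0597), Gins4 at -0.52 (0.149), Gins3 at -0.44 (0.112) and Cdc45 at -0.22 (0.377).

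The copying polymerases held some of the smallest p-values. Pold2, the second subunit of polymerase delta, read 1472, 1435 and 1189 in WT leukaemia and 677, 572 and 761 in KO leukaemia. The lowest WT array was well above the highest KO array, and the gene was 2.02-fold lower, at -1.01 (SE 0.14, adjusted p = 0.00389). Pole2, the second subunit of polymerase epsilon, read 811, 769 and 734 against 527, 411 and 448, at -0.73 (SE 0.12, adjusted p = 0.00729). Pole, its catalytic subunit, read 1040.2, 1049.9 and 913 against 721, 704 and 707, with KO arrays close together and all below WT, at -0.48 (SE 0.10, adjusted p = 0.0177). Pold1, the catalytic subunit of polymerase delta, differed by -0.30 (adjusted p = 0.554) with overlapping arrays, since 1 KO array read 1341. Prim2, the large subunit of primase, read 745, 778 and 596 against 517, 408 and 362 and fell, at -0.70 (SE 0.17, adjusted p = 0.0305). Prim1, Pola1 and Pola2 were at -0.46, -0.43 and -0.26, with adjusted p of 0.155, 0.28 and 0.539.

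Of the clamp group, Rfc2, a small subunit of the clamp loader, read 1290.3, 1177 and 939 against 751, 669 and 799.7. It fell without overlap, at -0.60 (SE 0.14, adjusted p = 0.0336). Rfc5, another small subunit, passed narrowly at -0.60 (adjusted p = 0.0496). Rfc4 and Rfc3 had differences of -0.90 and -0.68 and missed the threshold (adjusted p of 0.0776 and 0.252), with KO leukaemia 2 far below the other KO arrays: Rfc3 read 527, 185 and 389. The clamp Pcna read 11712, 12173 and 7746 in WT and 9476, 7041 and 6198 in KO leukaemia, with overlap, at -0.47 (adjusted p = 0.232). Rpa3, the smallest RPA subunit, was at -0.82 (adjusted p = 0.0571), its KO arrays wholly below WT, while Rpa1 and Rpa2 were at -0.33 and -0.39. The flap nuclease Fen1 and the ligase Lig1 were at -0.28 and -0.49 (adjusted p = 0.316 and 0.0596). Chaf1b, the measured subunit of chromatin assembly factor 1, was at -0.63 (adjusted p = 0.0915).

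None of the 6 genes of nucleotide supply and uracil removal passed, although their differences ran from -0.89 to -0.29. Dut, which destroys dUTP, read 3056, 3372 and 1829.9 against 1903, 1291 and 1186, so that the lowest WT array was just under the highest KO array. Tk1, thymidine kinase, read 1410.5, 1411 and 717 against 948, 606 and 448, with WT array 3 inside the KO range. The other 4 were at -0.52 for the uracil glycosylase Ung, -0.43 and -0.43 for the ribonucleotide reductase subunits, and -0.29 for thymidylate synthase.

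Of all members, the activator E2f2 had the widest gap between the leukaemias. It read 852, 1089 and 656 in WT leukaemia and 279, 171 and 183 in KO leukaemia, 3.89-fold lower, a difference of -1.96 (SE 0.24, adjusted p = 0.00202). No KO array came near the lowest WT array. The repressor E2f8 read 715, 825 and 774 against 447, 444 and 550.2 and also fell, at -0.67 (SE 0.12, adjusted p = 0.0113). E2f1 was at -0.41 (adjusted p = 0.0941) with arrays that did not overlap, and Ccne1 at -0.85 (0.0556). E2f7 and Ccne2 were at -0.07 (0.809) and -0.09 (0.88), with overlapping groups.

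**Figure D2:**
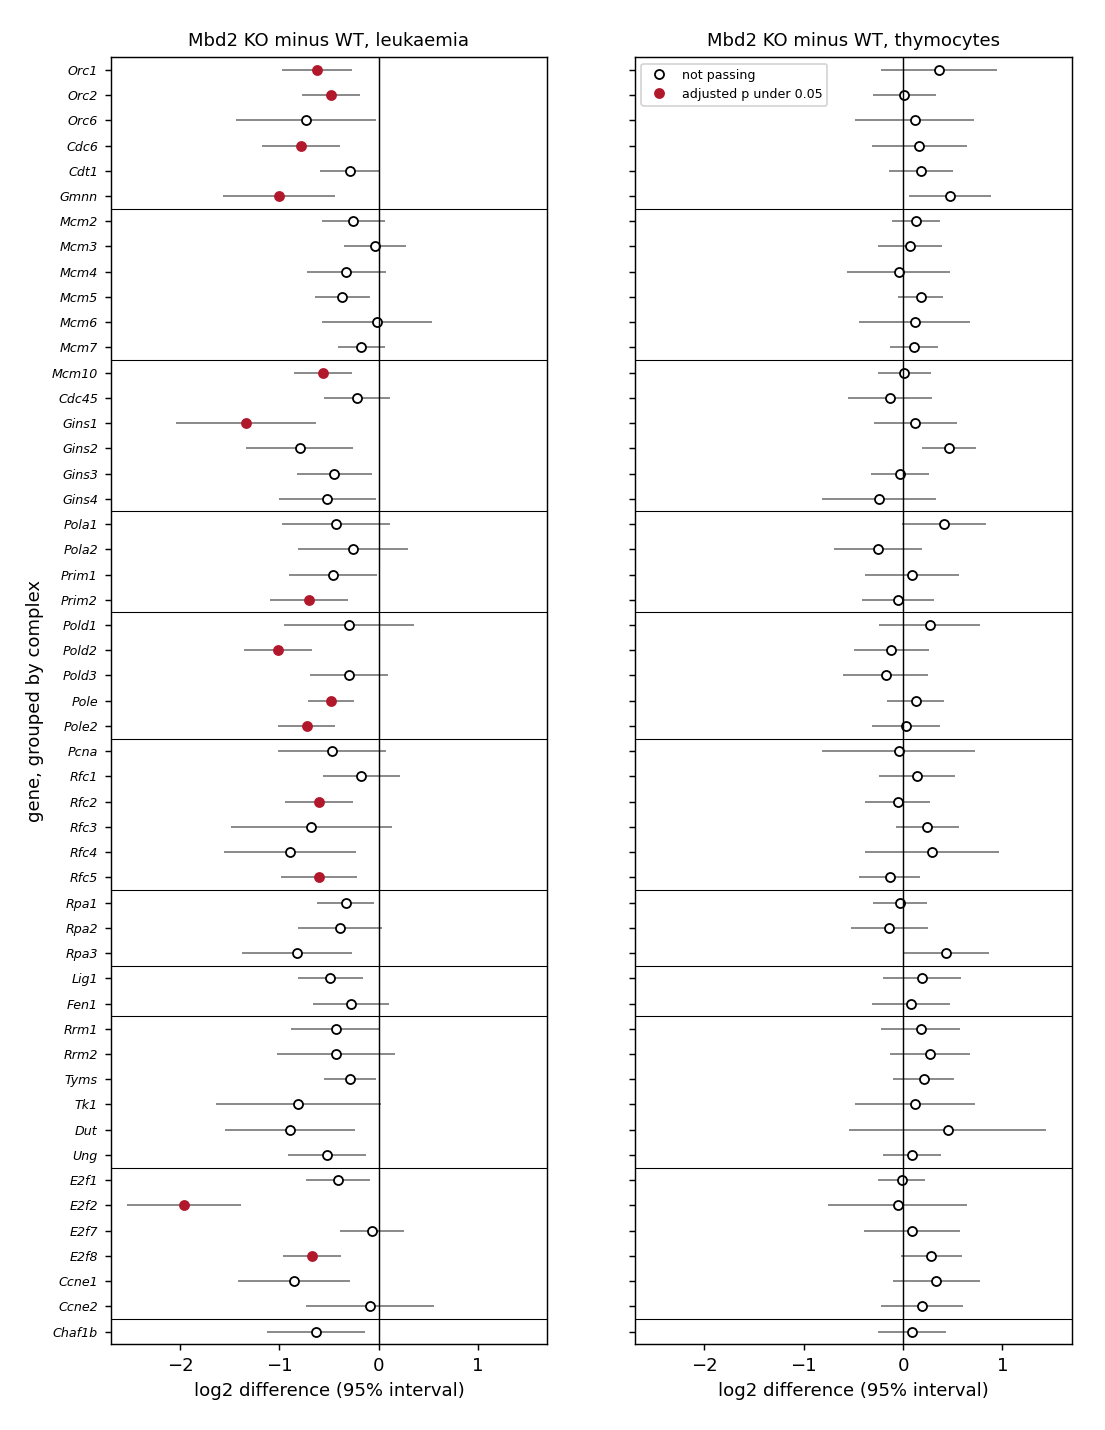
Points are log2 differences between KO and WT for the 51 genes, in leukaemia on the left and thymocytes on the right, with limma's 95% intervals; filled points passed an adjusted p of 0.05. All 51 points are left of 0 in leukaemia, 14 of them filled, and 0 are filled in thymocytes.

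Other genes of replication, outside the 51, were taken from a list of 67, of which 63 were tested. In KO leukaemia 9 were called lower and 0 higher, with a median difference of -0.30. The 4 with the smallest p were Samhd1, which breaks down dNTPs, at -1.12 (SE 0.15, adjusted p = 0.0029), Recql4, a helicase of origin firing, at -0.76 (SE 0.10, adjusted p = 0.00293), Chtf18, of an alternative clamp loader, at -0.97 (SE 0.14, adjusted p = 0.00477), and the nuclease Exo1 at -0.94 (SE 0.19, adjusted p = 0.0163). Recql4 read 336, 331 and 343 in WT and 182, 181 and 214 in KO leukaemia.

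Several other measures moved with these differences. Of 13 measured mitosis genes, 13 had a lower mean in KO leukaemia and 2, Birc5 and Bub1b, were called (median -0.36). The summed mitosis signal was 20289 to 22763 on the WT leukaemia arrays and 15518 to 19003 on the KO arrays, while Mki67, a general marker of cycling cells, had means of 4422 and 4158. The 8 myeloid markers, none of them at 0, summed to 625 to 1037 in WT and 240.1 to 487 in KO leukaemia, and the 5 measured erythroid markers to 178 to 294 and 178 to 201. Of these lists, 2 of 8 myeloid and 2 of 5 erythroid genes (Alas2 and Slc4a1) were called lower. The 6 measured B cell markers summed to 135 to 137 in WT and 161 to 232 in KO leukaemia, without overlap, and 1 was called higher, the antigen receptor chain Cd79b at 0.65 (adjusted p = 0.0248). Of the 7 measured T lineage markers, whose sums of 20745 to 25526 and 16753 to 21804 overlap, 1 was called lower, Thy1 at -2.37 (SE 0.17, adjusted p = 0.000201). The 8 measured double positive genes summed to 11299 to 13420 in WT and 2754 to 3501 in KO leukaemia, with 6 called lower. The part of other cells, of cell stage and of sex in the member differences was not tested.

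Leukaemia arrays with the same replicate number deviated together (correlations of 0.40, 0.24 and 0.55), and a fit with the replicate number as a block called 29 members lower in place of 14, all 14 among them. KO array 1 with WT array 2 was at 0.22, close to pair 2, and the other unlike pairs were at -0.49 to -0.01. The arrays of pair 1 and of pair 3 also shared their dap status, so number and dap set cannot be told apart there. Within the arrays with dap signal (2 WT and 1 KO), all 51 members were lower in KO, with a median of -0.48 over members and -0.07 over all genes tested. Within those without (1 WT and 2 KO), limma called 0 of 51 and 0 of all genes tested, with 10 members at an unadjusted p under 0.05, 46 members at a lower mean and a member median of -0.40. Without WT leukaemia array 1, 2 or KO array 2 the count was 6, 4 and 8. E2f2, Pold2 and Pole2 were called whichever single array was left out.

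In thymocytes, the second comparison of genotypes, none of the 51 members was called by limma, where 0.0195% and 0.013% of all genes tested were called higher and lower. The members differed by -0.25 to 0.47, 36 higher and 15 lower in KO, with a median of 0.12 against -0.02 over all genes tested. Adjusted p ran from 0.828 to 0.997, and 3 members were at an unadjusted p under 0.05, beside 722 of the 15420 genes tested. The 3 members were Gins2 at 0.46 (95% interval 0.19 to 0.74), Gmnn at 0.47 (0.06 to 0.89) and Rpa3 at 0.43 (0.00 to 0.87), each with a higher mean in KO thymocytes. Gmnn read 967, 1087 and 743 on WT and 1069, 1415 and 1396 on KO thymocyte arrays, which overlap, and Gins2 read 209, 179 and 209 and 260.0, 269 and 313, which do not. All 3 KO arrays lay above all WT arrays for Gins2, Mcm5 and Rfc3, and for 0 members below them, beside 4.06% and 4.58% of all genes tested. E2f2 read 2131, 2183 and 1189.7 and 1263, 1689 and 2321, a wide spread in both genotypes, at -0.05 (interval -0.75 to 0.64). The half-width of the interval had a median of 0.40 over members, so intervals of differences under that size mostly included 0 with 3 arrays a group. A call after adjustment needed more than that: Gins2 and Gmnn, at 0.46 and 0.47, were not called. The member median was 0.01 without WT thymocyte array 3, which had the lowest median over members and the highest Gapdh ratio of all arrays, and 0.04 without KO thymocyte array 3. Other settings raised it. The median was 0.21 with centring on the 75th percentile, 0.17 with quantile normalization and 0.16 with the Gapdh ratio as a covariate. With the dap set as a block it was 0.22, where WT thymocyte array 3 was the only WT array without dap signal.

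**Figure D3:**
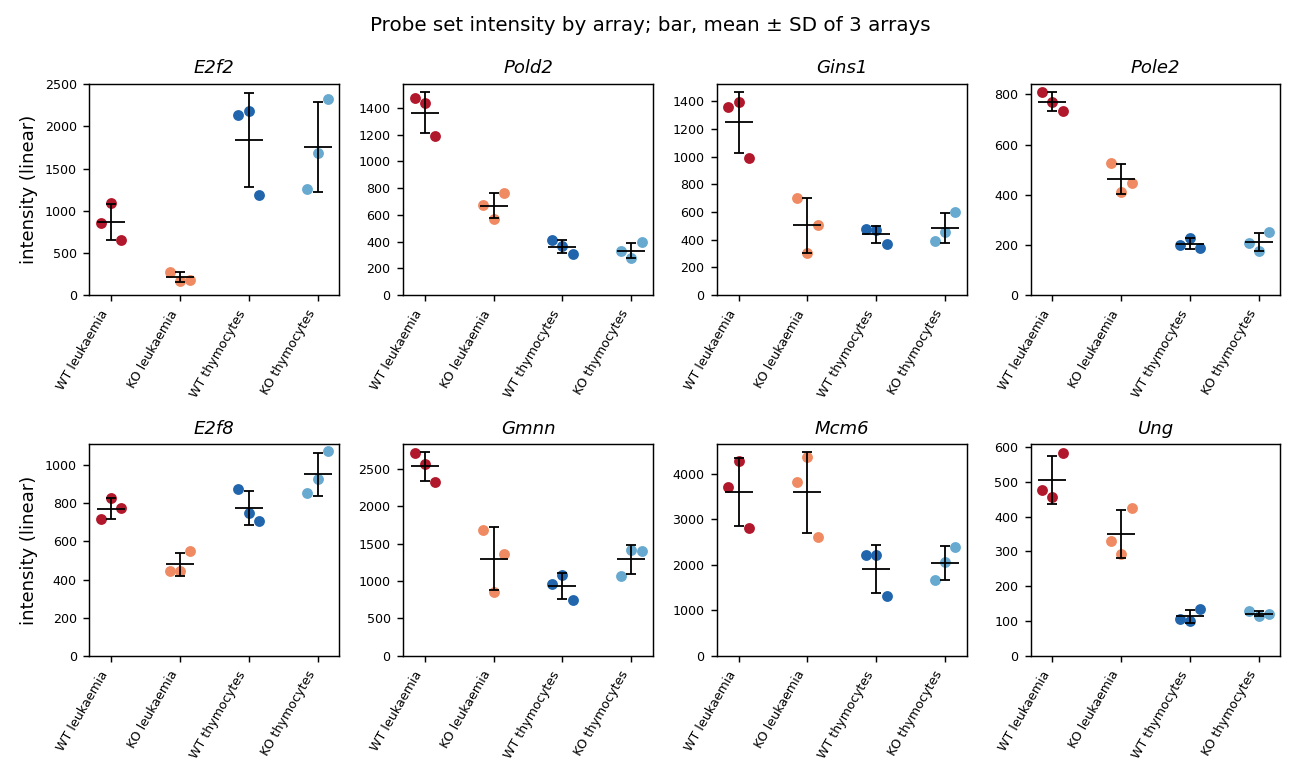
Points are the intensity of 8 genes on each array, by group, on linear axes that start at 0; bars are the mean and SD of 3 arrays. E2f2 falls from 865 to 211 between WT and KO leukaemia and is above both in thymocytes, whereas Mcm6 has means of 3605 and 3598 in the leukaemias.

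The third comparison set leukaemia against thymocytes with MBD2 intact. Of 51 members 43 were called higher in WT leukaemia and 2 lower, with 19.7% and 14.2% of all genes tested called higher and lower. The median difference was 1.00 over members and 0.06 over all genes. For 43 members all 3 leukaemia arrays lay above all 3 thymocyte arrays, against 27.6% of all genes tested. All 6 licensing genes, all 6 MCM subunits, all 6 helicase activation genes and all 4 primase and polymerase alpha genes were called higher. Pole2 read 199.8, 228 and 189 in WT thymocytes, so it was 3.56-fold higher in leukaemia, at 1.83 (SE 0.11, adjusted p = 4.55e-05). Pole read 329, 316 and 309, with a difference of 1.61 (SE 0.10, adjusted p = 5.52e-05). Ung had the widest rise, 4.01-fold, from 107, 100.2 and 135 in WT thymocytes to 476, 457 and 583 in WT leukaemia with a difference of 2.00 (SE 0.15, adjusted p = 9.71e-05). Gins2 rose by 1.66, Pold2 by 1.87, Chaf1b by 1.65, Gins1 by 1.47, Gmnn by 1.44 and Mcm10 by 1.41, with adjusted p from 0.000104 to 0.000662. E2f1, Mcm5 and Rfc3 rose by 1.15, 0.99 and 1.00.

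The E2F group split in this comparison. E2f1 and Ccne1 (cyclin E) rose, Ccne1 by 1.18 (adjusted p = 0.00236). E2f2 fell by 1.05 (adjusted p = 0.0246) and E2f7 by 1.05 (0.00495); E2f7 read 87.2, 111 and 97.2 in WT leukaemia and 236, 163 and 276 in WT thymocytes, without overlap. The call of E2f2 was lost when any 1 of 4 of the 6 arrays was left out, with adjusted p up to 0.0829. E2f8 read 875, 746 and 706 in WT thymocytes, overlapping the 715, 825 and 774 of WT leukaemia, at -0.00 (interval -0.28 to 0.28). The other members not called were Ccne2, Pcna, Pold3, Rpa1 and Rrm2. Pcna read 9717, 10277 and 5346 in WT thymocytes, a range that overlaps WT leukaemia. With 1 array left out at a time, 33 of the 45 calls were always made.

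With MBD2 deleted, 19 members were called higher in leukaemia than in thymocytes and 4 lower, where 18.5% and 11% of all genes tested were called higher and lower. The median was 0.40 over members and 0.01 over all genes. In the MCM ring 5 of 6 were called higher, and Mcm3 read 2070.3, 2268 and 1973 in KO leukaemia and 997, 954 and 1101 in KO thymocytes, 2.05-fold higher at 1.04 (SE 0.11, adjusted p = 0.00045). Ung was at 1.40 (SE 0.15, adjusted p = 0.000469), Pole at 0.99 (SE 0.12, adjusted p = 0.000966) and Pole2 at 1.08 (SE 0.16, adjusted p = 0.00198). Mcm10, Pold2, E2f1, Cdc45 and Mcm2 rose by 0.84, 0.97, 0.76, 0.91 and 0.59. With the probe sets used, none of the 6 licensing genes was called by limma in this comparison, and the 6 differed by -0.35 to 0.39. Cdc6 and Orc2, 2 of the 6, had an unadjusted p under 0.05, as did 5932 of the 15420 genes tested. This depended on the probe set. With the mean of a gene's probe sets, Cdt1 and Orc2 were called higher. Other probe sets with a group mean over 100 were at 0.56 for Cdt1, 0.77 for Orc1, and 0.96 and 0.23 for Orc2. Gmnn read 1684, 857 and 1360.0 in KO leukaemia against 1069, 1415 and 1396 in KO thymocytes, with overlap, at -0.03 (interval -0.62 to 0.56).

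The 4 lower genes were E2f2, E2f7, E2f8 and Rrm2. E2f2 read 279, 171 and 183 in KO leukaemia against 1263, 1689 and 2321 in KO thymocytes, 7.75-fold lower at -2.95 (SE 0.26, adjusted p = 0.000201). E2f7 and E2f8 were at -1.21 (SE 0.16, adjusted p = 0.00119) and -0.96 (SE 0.14, adjusted p = 0.00182), and none of their KO leukaemia arrays reached the lowest KO thymocyte array. Rrm2, the small subunit of ribonucleotide reductase, read 2056, 2639.5 and 3906 against 5858, 5065 and 4555, at -0.89 (adjusted p = 0.0263). The call of Rrm2 was kept only without KO leukaemia array 3 and lost when any other 1 of the 6 arrays was left out (adjusted p up to 0.0917), and its other 2 probe sets were at -0.37 and -0.36. The count of higher members was 12 without KO thymocyte array 1 and 11 without array 2. With each array centred on its 75th percentile it was 14 higher and 5 lower, the member median 0.22 and the median of all genes -0.17; over all genes the split then moved from 2845 higher and 1694 lower to 2262 and 2593. This comparison and the one with MBD2 intact share no arrays, but each shares arrays with a genotype comparison.

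**Figure D4:**
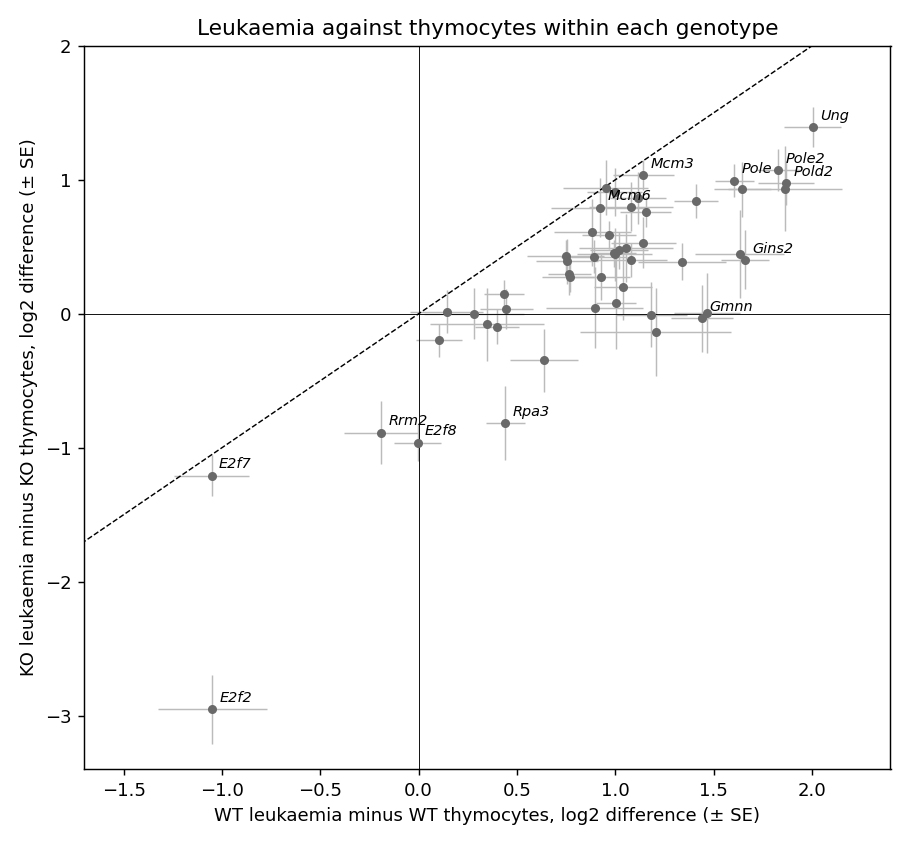
Each point is 1 of the 51 genes, with its log2 difference between leukaemia and thymocytes in WT samples on the horizontal axis and in KO samples on the vertical axis; bars are SE and the dashed line marks equal differences. All 51 points lie below the line, Mcm3 and Mcm6 near it, by the probe sets used, and E2f2 far below.

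The other replication genes followed both comparisons with 39 of 63 called higher and 4 lower in WT leukaemia over thymocytes (median 0.75), and 22 higher and 2 lower with MBD2 deleted (median 0.39). With MBD2 intact, the folate enzyme Mthfd1 was at 2.26 (SE 0.11, adjusted p = 2.42e-05), Dctpp1, a dNTP pyrophosphatase, at 1.95 (SE 0.15, adjusted p = 0.000119), Recql4 at 1.30 (SE 0.10, adjusted p = 0.000119) and Chtf18 at 1.27 (SE 0.11, adjusted p = 0.000179). With MBD2 deleted, Rb1, the retinoblastoma protein that holds back E2F, was lower at -2.02 (SE 0.15, adjusted p = 8.18e-05). E2f6 was higher at 1.58 (SE 0.15, adjusted p = 0.000318), Dctd, a dCMP deaminase, at 2.14 (SE 0.22, adjusted p = 0.00038) and E2f3 at 1.42 (SE 0.17, adjusted p = 0.000868). Of the 13 mitosis genes, 7 were called higher and 0 lower in the WT comparison, and 0 higher and 1 lower in the KO comparison. Their summed signal was 15375 to 16719 in WT thymocytes and 16168 to 21522 in KO thymocytes.

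Markers of other cells also moved between leukaemia and thymocytes. With MBD2 intact, the myeloid markers summed to 625 to 1037 in leukaemia and 220.2 to 481 in thymocytes, and the erythroid markers to 178 to 294 and 90.4 to 108, without overlap in either list. Called higher in WT leukaemia were 2 of 8 myeloid genes, S100a8 at 3.26 (SE 0.60, adjusted p = 0.00521) and Mpo at 0.39, and 3 of 5 erythroid genes, Slc4a1, Klf1 and Alas2, at 1.75, 1.10 and 0.78. The B cell markers were lower in WT leukaemia, at 135 to 137 against 269 to 308, with Cd79b called, and 4 of 7 T lineage genes were called lower. With MBD2 deleted, the erythroid sums were 178 to 201 in leukaemia and 91.7 to 115 in thymocytes, with Klf1 called higher at 1.72. The myeloid sums of 240.1 to 487 and 232 to 364 overlap there. Cd79b was again called lower, and of the T lineage genes 1, Zap70, was called higher and 5 lower. The part of these cells in the member differences was not tested.

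The last comparison asked whether the genotype difference was unequal in the 2 cell types, by the interaction in a limma fit of all 12 arrays. It is the leukaemia difference minus the thymocyte difference, and by arithmetic also the KO minus the WT difference between leukaemia and thymocytes. All 51 members were negative, 13 of them were called, where 4.74% and 7.86% of all genes tested were called negative and positive. The median was -0.56 over members and -0.05 over all genes. E2f2 was at -1.91 (SE 0.42, adjusted p = 0.0106), E2f8 at -0.96 (SE 0.18, adjusted p = 0.00407), Gmnn at -1.48 (SE 0.32, adjusted p = 0.00969) and Gins2 at -1.26 (SE 0.27, adjusted p = 0.00911). These 4 were called whichever single array was left out. Gins1 was at -1.46 (SE 0.37, adjusted p = 0.0243), Rpa3 at -1.26 (SE 0.32, adjusted p = 0.0229) and Ccne1 at -1.19 (SE 0.33, adjusted p = 0.0342). Pold2, Pole2, Pole, Mcm10 and Mcm5 were at -0.89, -0.76, -0.61, -0.57 and -0.54 (adjusted p from 0.0198 to 0.0415), and Cdc6 at -0.95 (0.0479).

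Among the marker lists, 1 of 5 erythroid genes (Slc4a1), 1 of 7 T lineage genes (Thy1), 5 of 8 double positive genes and 2 of 13 mitosis genes were called negative and 1 of 6 B cell genes (Cd79b) positive; their part in the member values was not tested.

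Of the 13 called members, 9 were also called lower in KO leukaemia. Ccne1, Gins2, Mcm5 and Rpa3 were called for the difference of effects but not in leukaemia, and Orc1, Orc2, Prim2, Rfc2 and Rfc5 the other way round. For all 4 of Ccne1, Gins2, Mcm5 and Rpa3 the KO mean was lower in leukaemia and higher in thymocytes, as it was for 36 of the 51 members. Rpa3 read 1378, 1366 and 1202 in WT leukaemia against 916, 498 and 869.8 in KO leukaemia. In thymocytes it read 937, 973 and 977 in WT against 969, 1587 and 1446 in KO, where 1 KO array lay inside the WT range. The differences were near 0 for Pola2 (-0.01), Cdc45 (-0.09), Mcm3 (-0.11) and Mcm6 (-0.13) from the probe sets used, with intervals of -0.72 to 0.70 for Pola2 and -0.53 to 0.31 for Mcm3. A second bright probe set of Mcm6 gave -0.81, from group means of 1354 and 1186 in WT and KO leukaemia and 513 and 829 in WT and KO thymocytes. The count was 21 with the dap set as a block and 25 with the Gapdh ratio as a covariate, while within the 7 arrays without dap signal, where both WT groups hold 1 array, 1 member, Cdc6, was called. There the member median was again -0.56 and 47 of 51 members were negative, and over all genes the negative calls went from 731 to 188 and the positive calls from 1212 to 424. With the dap set as a block, calls over all genes rose too, to 1064 negative and 1361 positive. With the Gapdh ratio as a covariate they rose to 1154 and 1723. The member count was 8 without WT leukaemia array 1, 5 without array 2, 8 without KO leukaemia array 2, 7 without WT thymocyte array 1 and 8 without KO thymocyte array 3. With centring on the 75th percentile, 18 were called, the member median was -0.66 and that of all genes -0.15, and the split over all genes moved from 1212 positive and 731 negative to 1044 and 961. Of the 63 other replication genes 7 were called negative and 0 positive (median -0.34), led by Recql4 at -0.69 (SE 0.13, adjusted p = 0.00466), Chtf18 at -0.95 (SE 0.19, adjusted p = 0.00611), Dctpp1 at -1.39 (SE 0.28, adjusted p = 0.00627) and Samhd1 at -1.11 (SE 0.26, adjusted p = 0.0152).

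Other probe sets of the same genes gave a second reading. There were 57 for 37 of the members, and 55 had a lower mean in KO leukaemia; all 39 with a group mean over 100 did. For E2f2 the second probe set differed by -1.73 between the leukaemias, beside -1.96 for the one used. Of the 39, 38 were higher in WT leukaemia than in WT thymocytes. For the difference of effects 37 of the 39 were negative, and the others were 1 of Mcm3 (0.03) and 1 of Rfc1 (0.17). In thymocytes the direction depended on the probe set: 19 of the 39, for 17 genes, had the opposite sign to the one used, so the count of 36 members with a higher KO mean holds only for the probe sets used. Rrm1 was at 0.18 from the one used and -0.48 from the other, and Rfc1 at 0.14 against -0.53 and 0.65. Mcm5 and Rfc3, whose KO thymocyte arrays lay above the WT arrays, each had another probe set with a lower KO mean (-0.08 and -0.06). Between leukaemia and thymocytes, the second Orc1 probe set was higher in KO leukaemia (0.77) where the one used was not (-0.35), and 1 other each of Ccne1 (0.26 beside -0.01) and Pold3 (-0.03 beside 0.02) differed in sign. The other 2 for Rrm2 were at 0.23 and 0.44 between WT leukaemia and thymocytes, where the one used was at -0.19, and those for Pold3 at 0.85 and 0.52 beside 0.14. The second Mcm6 probe set was at 1.34 with MBD2 intact and 0.53 with MBD2 deleted, where the one used was at 0.92 and 0.79. The 4 Mcm7 probe sets differed by -0.18 to -0.47 between the leukaemias.

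Members with and without an E2F word in the promoter were also set side by side. The 16 with a word had a median difference of -0.40 between the leukaemias with 4 called lower, and the 26 measured members whose promoter had none had -0.48 with 5 called lower. Between WT leukaemia and thymocytes the medians were 0.96 and 0.98. E2f2, Cdc6, Pole2 and Orc1 are the 4 called members with a word, and Mcm3 and Mcm6, printed with them, are among the 12 not called. The called members Gins1, Gmnn, Pole, Prim2 and Rfc2 had no promoter on hand, so they are in neither set.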

How the data were processed

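Gene expression was measured on 12 Affymetrix mouse 3′ expression arrays. Per the labels, biotinylated cRNA was made from 7 µg of total RNA. The authors deposited 1 intensity per probe set on a linear scale (3.07 to 21620); how they summarised and normalised it is not given in the sources used here. Medians per array ranged from 5.71 to 5.79 in log2, and arrays of a group correlated at 0.979 to 0.993, so no further normalization was applied. The number of arrays limits the precision.

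A gene's value is that of the probe set, among those assigned to it alone, with the highest mean log2(intensity + 16). Genes above their array's 25th percentile on at least 3 arrays were tested (15420 of 18193). Each pair of groups was fitted in limma 3.58.1 (lmFit, eBayes; R 4.3.3) without the replicate number, and the interaction over all 12 arrays; the fits were tested on simulated data. Same-numbered arrays deviated together in the leukaemias (above) and in WT leukaemia and thymocytes (correlations 0.45, 0.44 and 0.58), but not in the other comparisons. Promoters and motif words came from RefSeq tables (GRCm38.p6).

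The members and lists were chosen with earlier results of these data known. All members may be named; per comparison, the up to 12 with the smallest p have full statistics, and up to 4 passing other replication genes are named. Xist was named outside this rule. Alternatives covered normalization, filter, probe sets, added constant, variance model, replicate block, dap signal and arrays left out; those by Gapdh ratio or within dap sets were added after seeing the data.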

Additional observations from a re-analysis of the deposited data

Results flagged for a closer look

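For 13 members the genotype difference in leukaemia differed from that in thymocytes by limma's interaction test over all 12 arrays. In every case the value was negative: -1.91 for E2f2, -1.48 for Gmnn, -1.46 for Gins1, -1.26 for Rpa3, -1.26 for Gins2, -1.19 for Ccne1, -0.96 for E2f8, -0.95 for Cdc6, -0.89 for Pold2, -0.76 for Pole2, -0.61 for Pole, -0.57 for Mcm10 and -0.54 for Mcm5. They span licensing, helicase activation, the copying polymerases, RPA, the E2F group and 1 of the 6 MCM subunits.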

How the results depend on the processing

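In KO against WT leukaemia, where 14 members were called lower, the count was 22 with the mean of a gene's probe sets, 29 with the replicate block, 0 within the arrays without dap signal and 4 to 15 with 1 array left out. In KO leukaemia against KO thymocytes, where 19 were called higher, the replicate block gave 12, leaving out 1 array 11 to 22, and centring on the 75th percentile a member median of 0.22. The 2 lower members of WT leukaemia against WT thymocytes were 1 to 2 with 1 array left out. For the difference of effects, where 13 were called, the count was 8 with a trended and robust variance, 21 with the dap set as a block, 25 with the Gapdh ratio as a covariate, 1 within the arrays without dap signal and 5 to 15 with 1 array left out. The cause was not tested. The replicate block moved no other count of called members by over 1.5 times. Over all genes the block took the lower calls in leukaemia from 1076 to 1936, and the calls in thymocytes were 3 higher and 2 lower, with 0 to 11 and 0 to 5 under the alternatives. For the difference of effects, negative calls over all genes went from 731 to 1064 with the dap set as a block. They went to 1154 with the Gapdh ratio as a covariate.

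No member called in a main comparison changed sign under any alternative run. In leukaemia, 204 of 280 fits of a called gene under another setting kept its call, and 808 of 855, 360 of 437 and 231 of 312 did in WT leukaemia against thymocytes, KO leukaemia against thymocytes and the difference of effects. No member was called in thymocytes under any alternative. Fits within the dap arrays were not run where a group had no array in the set. A lone array left in a group is assumed to vary like the other group.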
